A study of Rattus norvegicus with 18 samples.

Results

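The kainate receptors and their Neto subunits were followed in the dorsal hippocampus of 18 rats that were fed a control or an ethanol liquid diet or were withdrawn from ethanol. The genes were chosen by name, as the 5 kainate receptor subunit genes of the rat (Grik1 to Grik5, which encode GluK1 to GluK5) and the 2 genes of their auxiliary subunits (Neto1 and Neto2). They were 7 of the 38445 genes in the deposited count files, and all 7 were among the 17853 genes with more than 0.5 CPM (counts scaled to library size) in at least 1 rat, which were tested.

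Kainate receptors are tetrameric ion channels opened by glutamate. GluK1, GluK2, and GluK3 bind kainate with lower affinity and form channels alone or together, whereas GluK4 and GluK5 bind it with higher affinity and need a low-affinity partner to form a channel. Neto1 and Neto2 are membrane proteins that associate with these receptors and slow their gating. In the hippocampus kainate receptors are known for their slow synaptic currents at mossy fiber synapses on CA3 pyramidal cells and for tuning transmitter release from glutamatergic and GABA terminals, and ethanol is known to act on kainate currents.

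All 18 rats were adult male Sprague Dawley rats, a wild-type outbred stock, bought at 75 to 85 days of age, individually housed and pair fed. The 6 control rats received the control liquid diet. The 6 ethanol rats were brought to an ethanol diet over 7 days and were then kept at 9% (v/v) for 16 days with 0 h of withdrawal. The 6 withdrawal rats were introduced to ethanol in the same way, kept at 9% for 15 days, and returned to the control diet for 24 h. Whole dissected tissue was sequenced, so that fewer cells of a type and less RNA per cell cannot be told apart in any value given here.

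Between 30873228 and 42679748 read pairs were counted on genes per rat. Among the members, counts per rat ran from 307 for Grik3 to 6905 for Grik5, so that no member was near the detection limit. The index sequences of the libraries came from 3 sets, with all 6 control rats in the first, the 6 ethanol rats and withdrawal rats 1 and 2 in the second, and the other 4 withdrawal rats in the third. Group and index set therefore cannot be told apart in the comparisons with control. The tissue label was checked against marker genes. The dentate granule cell marker Prox1 (53.0 to 148 CPM), the CA1 marker Wfs1 (75.6 to 349 CPM), and the CA3 marker Bok (29.9 to 148 CPM) were present in all rats, whereas the markers Tdo2, Fibcd1, and Iyd did not exceed 0.297 CPM in any rat. Markers of neighboring tissue were present too and varied widely between rats, with the thalamic marker Prkcd between 36.5 and 565 CPM and the choroid plexus marker Ttr between 20.4 and 4733 CPM.

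To see which kainate receptor transcripts the tissue held, levels were compared per kilobase of annotated exon, the scale on which different genes can be set side by side. Grik5 was the most abundant member, at 41.6 ± 4.44 CPM per kb (SD, n = 18 rats), and it made up 54.8% ± 2.30 of the transcripts of the 5 receptor subunits on this scale. Neto1 followed at 23.8 ± 5.98 CPM per kb. Grik2, which encodes the most abundant low-affinity subunit here, stood at 14.8 ± 1.44, Neto2 at 14.2 ± 1.48, and Grik4 at 13.7 ± 2.38 CPM per kb. Grik3 (3.19 ± 0.961 CPM per kb) and Grik1 (2.47 ± 0.418 CPM per kb) were the lowest.

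Grik5 was above Neto1 in 18 of 18 rats, Neto1 above Grik2 in 17, Grik4 above Grik3 in 18, and Grik3 above Grik1 in 18. Grik2, Neto2, and Grik4 did not differ beyond their spread, since Grik2 was above Neto2 in 13 rats and Neto2 above Grik4 in 11. Levels per kilobase depend for every member on how complete its annotation is, and Neto2 has the shortest, with 1545 exon bases. The transcripts of the high-affinity subunits exceeded those of the low-affinity subunits 2.72-fold ± 0.367 (n = 18). Among the ionotropic glutamate receptor transcripts, kainate receptor subunits made up 11.6% ± 0.391 in control, 12.3% ± 0.697 in ethanol, and 12.1% ± 1.11 in withdrawal rats (SD, n = 6 each), compared with 61.0% ± 1.57 for AMPA and 25.9% ± 1.15 for NMDA receptor subunits in control rats. The plot of levels per kilobase shows these genes in order.

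**Figure D1:**
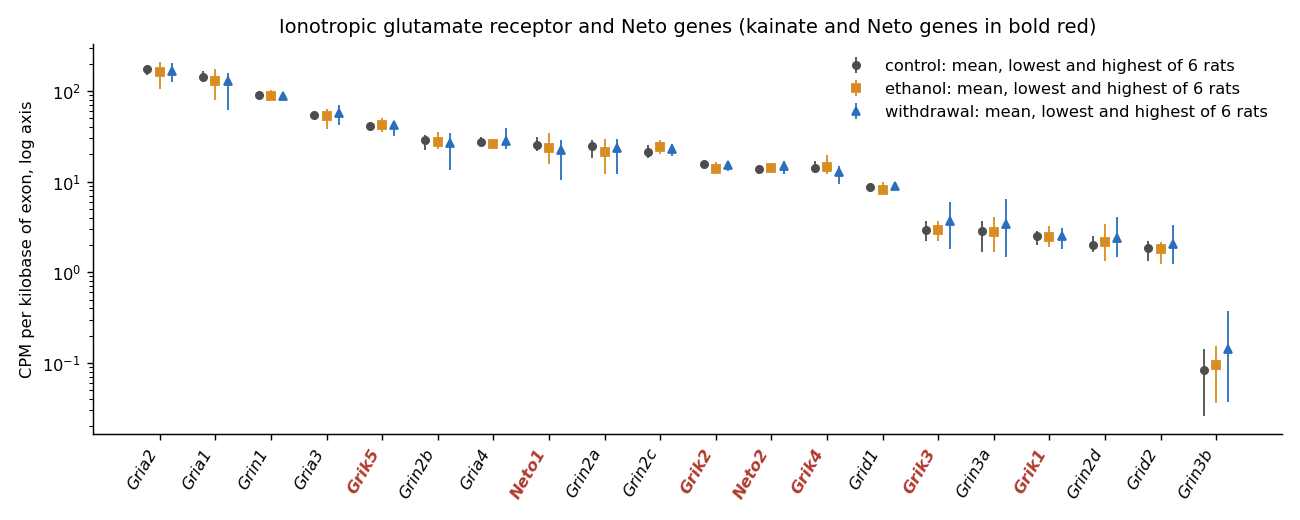
Levels of the ionotropic glutamate receptor and Neto genes in CPM per kilobase of exon (log axis), with the mean of each group of 6 rats as a symbol and its lowest and highest rat as the ends of the line. Grik5, Grik3, and Grik1 lie within the range of the AMPA and NMDA receptor genes. Over all rats Grik3 and Grik1 (3.19 and 2.47 CPM per kb) lie near the NMDA receptor genes Grin3a and Grin2d (3.02 and 2.17 CPM per kb).

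Between rats, Grik4 and Grik3 moved in opposite directions, as described further on, and their promoters are shown because these are the members with the most contrasting patterns. The sequences are those of RefSeq for assembly GRCr8, from 250 bases before to 50 bases after the annotated start, and capitals mark matches to 3 motifs searched on both strands: TTCNNNGAA, the core of the sites bound by STAT transcription factors, GGGCGG, the GC box bound by Sp1, and TGACGTCA, the cyclic AMP response element. The Grik4 promoter lies at chr8:52102014-52102313 on the minus strand and the Grik3 promoter at chr5:143052192-143052491 on the plus strand.
Grik4: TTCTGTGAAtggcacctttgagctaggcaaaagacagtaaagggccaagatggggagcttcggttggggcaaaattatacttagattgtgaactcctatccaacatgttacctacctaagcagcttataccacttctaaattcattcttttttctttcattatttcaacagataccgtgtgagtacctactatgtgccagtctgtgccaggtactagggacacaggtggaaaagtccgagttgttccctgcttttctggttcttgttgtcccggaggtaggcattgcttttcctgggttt
Grik3: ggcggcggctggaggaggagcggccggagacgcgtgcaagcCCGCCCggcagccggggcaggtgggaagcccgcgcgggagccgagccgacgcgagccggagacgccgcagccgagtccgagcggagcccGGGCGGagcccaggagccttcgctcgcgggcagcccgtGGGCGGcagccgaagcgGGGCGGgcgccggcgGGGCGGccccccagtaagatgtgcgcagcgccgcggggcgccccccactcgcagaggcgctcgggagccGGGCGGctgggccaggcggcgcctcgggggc
The Grik4 window held 1 match to TTCNNNGAA at its far end, 0 GC boxes, and 44.0% G and C bases. The Grik3 window held 6 GC boxes, 0 matches to TTCNNNGAA, and 82.3% G and C bases, with 49 CG dinucleotides against 4 in Grik4. Of the 33469 promoters of this length in the table, 8.87% held TTCNNNGAA, 33.1% a GC box, and 1.83% TGACGTCA, and the median was 51.7% G and C bases. Among the other members, GC boxes were found in Grik5 (2), Neto1 (1), and Neto2 (3) and not in Grik1 or Grik2. TTCNNNGAA was found in no member but Grik4, and TGACGTCA in none of the 7.

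To ask whether chronic ethanol or withdrawal altered these transcripts, the 3 groups were compared by limma-voom with 3 surrogate variables. These were estimated to stand for variation between rats beyond that of the groups. They were not wholly separate from group, which explained 14.3, 13.6, and 1.87% of surrogate variables 1, 2, and 3. None of the 7 members passed q < 0.1 in any comparison. In ethanol vs. control, 0 of 7 were DE against 0.65% of all genes tested. In withdrawal vs. control, 0 of 7 were DE against 5.51% of genes, and in withdrawal vs. ethanol 0 of 7 against 2.75%. A count of 0 among 7 genes is near each of these shares. At an unadjusted p under 0.05 by limma-voom, 2, 0, and 3 members passed in these comparisons, where the background was 12.4, 19.8, and 16.8% of genes. By the exact permutation test at p under 0.05, 1 (Grik2), 0, and 0 members passed, beside 13.5, 13, and 14.4% of genes. By the quasi-likelihood test of edgeR 0 members were DE in each comparison, beside 0.734, 5.94, and 2.99% of genes. By DESeq2 1 member (Grik5) was DE in ethanol vs. control and 0 in the other comparisons, beside 2.62, 9.01, and 6.63% of genes. For no member did 2 groups fail to overlap (background 1.39% of genes in ethanol vs. control, 1.07% in withdrawal vs. control, and 1.2% in withdrawal vs. ethanol).

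Over the 7 members and 3 comparisons, the 95% confidence limits of the fold change with 3 surrogate variables ran from 0.809 (Grik1, withdrawal vs. ethanol) to 1.24 (Grik3, ethanol vs. control). Estimates under other settings reached beyond these limits for Grik3, with log2 fold changes of up to 0.33 in withdrawal vs. control and 0.33 in withdrawal vs. ethanol, without passing q < 0.1. The median size of the log2 fold change of the members was 0.063 in ethanol vs. control, 0.088 in withdrawal vs. control, and 0.10 in withdrawal vs. ethanol, beside 0.080, 0.090, and 0.094 over all genes tested. The plot of differences between groups shows all 21 estimates.

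**Figure D2:**
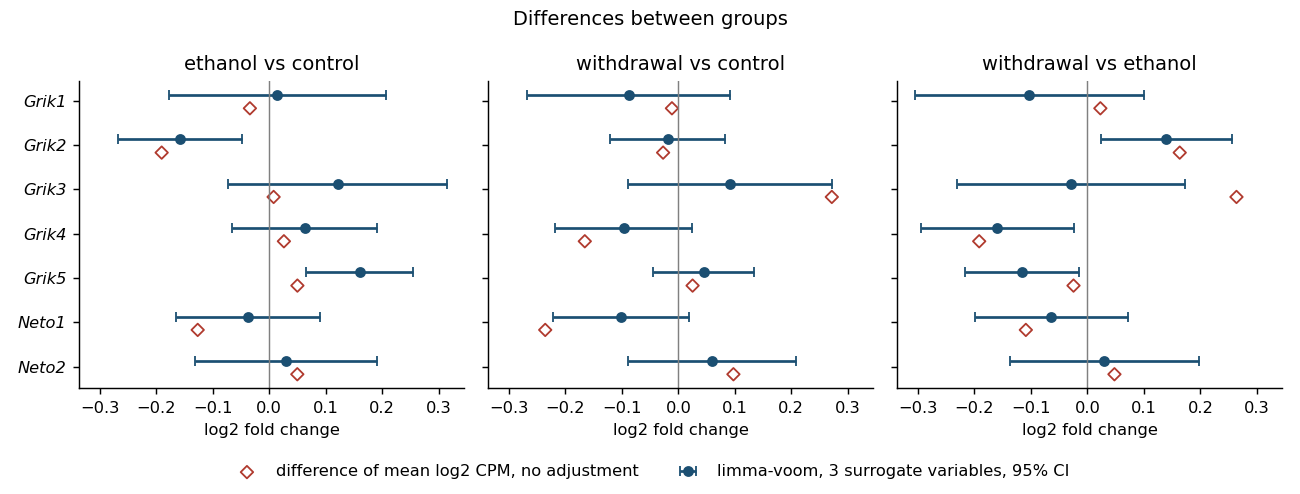
Log2 fold changes of the 7 members in the 3 comparisons, with filled circles for limma-voom with 3 surrogate variables (lines, 95% confidence interval) and open diamonds for the difference of mean log2 CPM without adjustment, n = 6 rats per group. Grik2 was lower and Grik5 higher in ethanol than in control rats without passing q < 0.1, and the widest gap between a circle and its diamond is that of Grik3 in withdrawal vs. ethanol (−0.029 and 0.26).

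Of the low-affinity subunits, Grik2 (gene ID 54257, chromosome 20, 53791428 to 54517691 on the minus strand of Rnor_6.0) was the one member with a permutation p under 0.05 in any comparison. GluK2 is the main low-affinity subunit of principal cells in the hippocampus and carries the mossy fiber kainate current together with GluK4 and GluK5. In control rats its level had a lowest value of 45.1, a median of 47.3, and a highest value of 49.2 CPM. In ethanol rats the corresponding values were 37.9, 40.2, and 49.8 CPM, and in withdrawal rats 40.3, 46.9, and 51.9 CPM. Of the ethanol rats, 5 were below every control rat and ethanol rat 5, at 49.8 CPM, was above all of them, whereas withdrawal rats lay on both sides of the controls.

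The mean of Grik2 was 47.4 ± 1.41 CPM in the controls, compared with 41.7 ± 4.63 CPM after chronic ethanol (SD, n = 6; two-sided exact permutation test, p = 0.0216, where 13.5% of genes had p under 0.05). By limma-voom the log2 fold change was −0.16 (SE 0.052) with q = 0.222. In withdrawal rats the mean was 46.6 ± 4.41 CPM, with a log2 fold change of 0.14 over ethanol (SE 0.055, q = 0.210 by limma-voom, exact permutation p = 0.0823) and −0.019 over control (q = 0.863 by limma-voom). Without ethanol rat 5, Grik2 passed the threshold in ethanol vs. control (log2 fold change −0.21, q = 0.0943 by limma-voom, background 1.46%) and in withdrawal vs. ethanol (0.20, q = 0.0464 by limma-voom, background 10.2%). The call thus rests on whether that rat is counted.

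Grik1 (gene ID 29559, chromosome 11, 27811954 to 28213940 on the minus strand) encodes GluK1, the subunit known from GABA interneurons in the hippocampus. Its lowest, median, and highest values were 12.1, 16.3, and 17.6 CPM in control, 11.5, 13.9, and 19.9 CPM in ethanol, and 11.0, 15.1, and 18.6 CPM in withdrawal rats. The 3 groups covered the same range, with means of 15.2 ± 2.45, 14.9 ± 3.02, and 15.1 ± 2.63 CPM (SD, n = 6). The limma-voom log2 fold changes were 0.014 (q = 0.969), −0.088 (q = 0.601), and −0.10 (q = 0.630) in ethanol vs. control, withdrawal vs. control, and withdrawal vs. ethanol, beside unadjusted differences of −0.034, −0.011, and 0.023.

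Grik3 (gene ID 298521, chromosome 5, 143500441 to 143715546 on the plus strand) encodes GluK3, a low-affinity subunit that responds only to high glutamate concentrations. In control rats it ranged from 9.81 to 16.6 CPM with a median of 13.5, and in ethanol rats from 9.84 to 16.5 CPM with a median of 13.4. In withdrawal rats it ranged from 8.14 to 26.3 CPM with a median of 16.0. Withdrawal rats thus held both the lowest value of all rats (rat 6) and the highest values (rats 5 and 1, at 26.3 and 19.7 CPM), and their SD of 6.17 CPM was more than that of control (2.81) or ethanol rats (2.77). The unadjusted difference from control was 0.27 on the log2 scale (exact permutation p = 0.348), and with surrogate variables it was 0.092 (SE 0.086, q = 0.584 by limma-voom). Against ethanol rats the unadjusted difference was 0.26 (exact permutation p = 0.368), whereas with surrogate variables the sign turned (−0.029, q = 0.913 by limma-voom).

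Of the high-affinity subunits, Grik5 (gene ID 24407, chromosome 1, 81885516 to 81946731 on the minus strand) had the smallest q of all members. GluK5 is the widely expressed high-affinity subunit that pairs with GluK2. It ranged from 138 to 170 CPM in control rats (median 155), from 132 to 189 CPM in ethanol rats (median 163), and from 120 to 177 CPM in withdrawal rats (median 163). The groups overlapped almost fully, and only ethanol rat 5 and withdrawal rat 4 lay above the highest control rat. The means were 154.0 ± 12.2, 160.0 ± 19.2, and 158 ± 20.5 CPM (SD, n = 6), and the exact permutation test gave p = 0.561 in ethanol vs. control.

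With surrogate variables the log2 fold change of Grik5 in ethanol vs. control was 0.16 (SE 0.045, 95% confidence interval 0.065 to 0.26, q = 0.146 by limma-voom), whereas without them it was 0.050 (q = 0.877 by limma-voom). Grik5 passed the threshold by DESeq2 with the same surrogate variables (q = 0.0666, background 2.62%) and by limma-voom with sample quality weights (q = 0.0667, background 2.53%). In withdrawal vs. control its log2 fold change was 0.045 (q = 0.592 by limma-voom), and in withdrawal vs. ethanol −0.12 (SE 0.048, q = 0.235 by limma-voom, exact permutation p = 0.829).

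Grik4 (gene ID 24406, chromosome 8, 46804134 to 47237546 on the minus strand) encodes GluK4, the high-affinity subunit known for its expression in CA3 pyramidal and dentate granule cells. It ranged from 71.6 to 96.4 CPM in control rats (median 77.9), from 69.1 to 114 CPM in ethanol rats (median 76.2), and from 53.5 to 85.8 CPM in withdrawal rats (median 76.2). Withdrawal rats 5 and 1 were the lowest of all 18, at 53.5 and 60.5 CPM, and the other 4 withdrawal rats lay among the controls. The log2 fold change by limma-voom was 0.063 in ethanol vs. control (q = 0.718), −0.097 in withdrawal vs. control (q = 0.364), and −0.16 in withdrawal vs. ethanol (SE 0.064, q = 0.221), and the exact permutation p for the last was 0.260.

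The ratio of Grik5 to Grik2, the usual GluK5 and GluK2 pair, was 2.63 ± 0.238 in control, 3.11 ± 0.290 in ethanol, and 2.74 ± 0.380 in withdrawal rats per kilobase (SD, n = 6). This ratio was chosen after the values of both genes were seen and is given without a test. It ranged from 2.35 to 2.93 in control and from 2.82 to 3.48 in ethanol rats, so that the groups overlapped.

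The auxiliary subunit Neto1 (gene ID 307206, chromosome 18, 83471342 to 83585043 on the plus strand), which also associates with NMDA receptors, had the widest range of the members in CPM. Its lowest, median, and highest values were 117, 128, and 168 CPM in control rats. In ethanol rats they were 84.9, 118, and 186 CPM, and in withdrawal rats 56.7, 141, and 157 CPM. Withdrawal rats 5 and 1 and ethanol rats 1, 2, and 3 were lower than all controls, at 56.7, 87.9, 84.9, 113, and 116 CPM, while 4 of the withdrawal rats lay within the control range. The unadjusted log2 difference in withdrawal vs. control was −0.24 (exact permutation p = 0.435), and with surrogate variables it was −0.10 (SE 0.057, q = 0.337 by limma-voom). In ethanol vs. control the unadjusted difference was −0.13 (exact permutation p = 0.485) and the log2 fold change with surrogate variables −0.037 (q = 0.848 by limma-voom). In withdrawal vs. ethanol these were −0.11 (exact permutation p = 0.732) and −0.064 (q = 0.656 by limma-voom).

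Neto2 (gene ID 307757, chromosome 19, 22450579 to 22486530 on the plus strand) had a narrow range, with lowest, median, and highest values of 18.8, 21.4, and 23.3 CPM in control, 19.3, 22.2, and 24.0 CPM in ethanol, and 18.9, 23.1, and 25.8 CPM in withdrawal rats. Of the withdrawal rats 3 were above every control rat and the others were spread over the control range. The log2 fold changes were 0.030 (q = 0.913), 0.059 (q = 0.681), and 0.030 (q = 0.889) by limma-voom in ethanol vs. control, withdrawal vs. control, and withdrawal vs. ethanol. The plot of values by rat shows all 7 members.

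**Figure D3:**
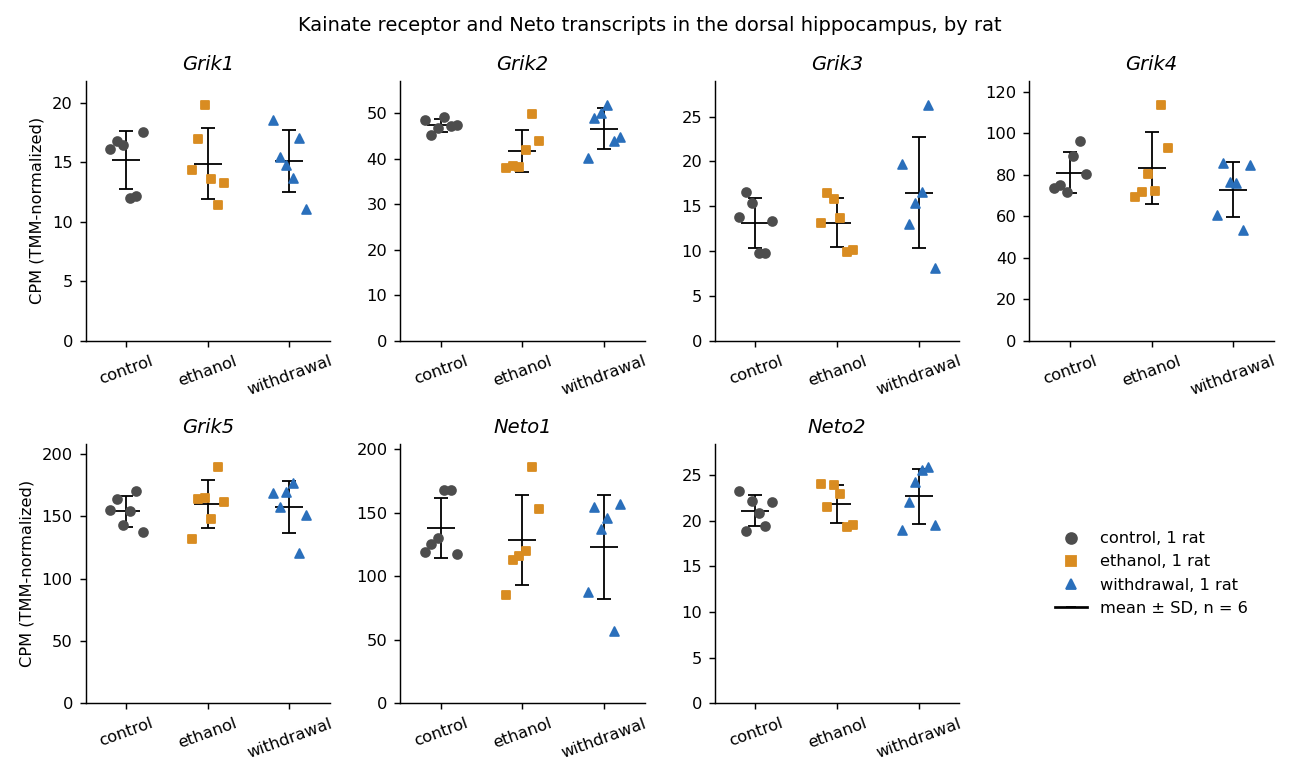
CPM of each member in each rat (points), with the mean and SD of the 6 rats of a group as a bar and whiskers, and axes from 0. The groups overlap for every member. Withdrawal rat 5 has the lowest Neto1 and Grik4 (56.7 and 53.5 CPM) and the highest Grik3 (26.3 CPM).

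Most of the variance of each member lay between rats of the same group. Group explained 36.3% of the variance of log2 CPM for Grik2 and between 0.352% (Grik1) and 12.5% (Grik4) for the others, beside a median of 15.7% over all genes tested. Of the variance left after group, the 3 surrogate variables explained 89.9% for Neto1, 84.1% for Grik5, 80.5% for Grik3, 75.1% for Grik4, and 72% for Grik1. For Neto2 and Grik2 the shares were 42.0 and 41.1%, and the median over all genes was 34%. The first surrogate variable ran against Grik3 (r = −0.92 over 18 rats) and Grik1 (−0.72) and with Grik4 (0.75) and Neto1 (0.71), and the second ran with Grik5 (0.75), Grik2 (0.72), Neto1 (0.66), and Grik4 (0.50). These variables were estimated from the same libraries, and the correlations with them are descriptions.

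The members fell into opposed patterns across rats. All 21 pairs were correlated over the 18 rats on log2 CPM, with p from 100000 permutations and Benjamini-Hochberg adjustment over the pairs. Neto1 and Grik4 rose and fell together (r = 0.90, rho = 0.868, each with adjusted permutation p = 0.00021, where the unadjusted p of 1e-05 is the smallest that the permutations can give). Their r was 0.84 within control, 0.93 within ethanol, and 0.98 within withdrawal rats, 0.93 among the 8 rats of the second index set, and 0.85 without ethanol rat 5 and withdrawal rat 5, the rats farthest from the median. The relation thus held inside each group and each index set large enough to test.

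Grik3 ran against this pair. Its r with Grik4 was −0.84 (rho = −0.761, adjusted permutation p = 0.00042 and 0.00199), with −0.91, −0.79, and −0.87 within control, ethanol, and withdrawal rats, −0.86 in the second index set, and −0.84 without withdrawal rats 5 and 6. Its r with Neto1 was −0.80 (rho = −0.709, adjusted permutation p = 0.00063 and 0.00689), with −0.85, −0.70, and −0.83 within the groups, −0.76 in the second index set, and −0.68 without the same 2 rats. Grik1 moved with Grik3 (r = 0.79, rho = 0.773, adjusted permutation p = 0.00056 and 0.00199; 0.91, 0.87, and 0.85 within the groups, 0.88 in the second index set, and 0.70 without ethanol rat 5 and withdrawal rat 6). Grik1 was also lower where Neto1 was higher (r = −0.63, rho = −0.792, adjusted permutation p = 0.0118 and 0.00136), with r between −0.98 in control and −0.54 in ethanol rats, −0.59 in the second index set, and −0.55 without ethanol rat 5 and withdrawal rat 6.

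The correlations of Grik5 with Neto1 and Grik4 did not pass for rho and were smaller without the 2 rats farthest from the median. For Grik5 and Neto1, r was 0.68 (rho = 0.437, adjusted permutation p = 0.00974 and 0.159) with 0.54, 0.87, and 0.69 within the groups, 0.59 in the second index set, and 0.27 without ethanol rat 1 and withdrawal rat 5. For Grik5 and Grik4, r was 0.59 (rho = 0.412, adjusted permutation p = 0.027 and 0.163) with 0.47, 0.82, and 0.54 within the groups, 0.54 in the second index set, and 0.14 without ethanol rat 5 and withdrawal rat 5. Grik1 was lower where Grik4 was higher (r = −0.64, rho = −0.606, adjusted permutation p = 0.0118 and 0.0271), with −0.85, −0.56, and −0.73 within the groups, −0.65 in the second index set, and −0.55 without ethanol rat 5 and withdrawal rat 6. Grik2 was higher where Neto1 was higher (r = 0.56, rho = 0.649, adjusted permutation p = 0.0297 and 0.0149), with 0.38, 0.91, and 0.62 within the groups, 0.86 in the second index set, and 0.51 without ethanol rats 1 and 3. The grid of correlations gives the other pairs, among which Neto1 and Neto2, the auxiliary subunits, had r = −0.47 (rho = −0.432, adjusted permutation p = 0.0845 and 0.159) and −0.16 without ethanol rat 1 and withdrawal rat 5.

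Cell type and tissue markers moved with the members. The summed CPM of each of 11 marker lists was correlated with each member over the 18 rats, in 77 relations with adjustment over all of them, of which 12 passed both for r and for rho. The share of such relations among all genes was not determined, so that this count cannot be read as particular to the members. Neto1 was higher in rats with more CA1 pyramidal cell marker RNA (r = 0.85, rho = 0.75, adjusted permutation p = 0.000577 and 0.00832), with r of 0.68, 0.81, and 0.96 within control, ethanol, and withdrawal rats, 0.78 in the second index set, and 0.67 without ethanol rat 1 and withdrawal rat 5. Grik5 moved with the same markers (r = 0.83, rho = 0.763, adjusted permutation p = 0.000577 and 0.0077; 0.95, 0.94, and 0.84 within the groups, 0.85 in the second index set, 0.63 without the same 2 rats), as did Grik4 (r = 0.69, rho = 0.697, adjusted permutation p = 0.0115 and 0.0164; 0.66, 0.68, and 0.89 within the groups, 0.64 in the second index set, 0.60 without the same 2 rats). Of the 4 CA1 markers Fibcd1 was at or near 0, and the sum of the list ranged from 410 to 581 CPM in control, from 214 to 577 CPM in ethanol, and from 219 to 589 CPM in withdrawal rats.

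Grik3 was higher in rats with more GABA interneuron marker RNA (r = 0.85, rho = 0.82, adjusted permutation p = 0.000577 and 0.00539; 0.85, 0.72, and 0.94 within the groups, 0.83 in the second index set, 0.71 without withdrawal rats 1 and 5). Grik1 was too (r = 0.60, rho = 0.699, adjusted permutation p = 0.0347 and 0.0164; 0.74, 0.58, and 0.82 within the groups, 0.68 in the second index set, 0.55 without the same rats). Gad1 made up the largest part of the sum (median 245.0 CPM). The single markers differed in their r with Grik3, from 0.88 (Slc32a1), 0.79 (Gad1), and 0.68 (Gad2) over 0.49 (Pvalb), 0.40 (Vip), and 0.28 (Sst) to −0.40 (Lhx6), and with Grik1 from 0.64 (Slc32a1) to −0.41 (Lhx6). All 7 of these markers were present, and their sum ranged from 423 to 593 CPM in control, 389 to 627 CPM in ethanol, and 463 to 838 CPM in withdrawal rats. Grik3 was lower where dentate granule cell markers were higher (r = −0.79, rho = −0.684, adjusted permutation p = 0.000577 and 0.0175; −0.55, −0.75, and −0.89 within the groups, −0.81 in the second index set, −0.63 without withdrawal rats 1 and 5). It was also lower where CA3 markers were higher (r = −0.74, rho = −0.767, adjusted permutation p = 0.0076 and 0.0077; −0.73, −0.34, and −0.93 within the groups, −0.64 in the second index set, −0.73 without ethanol rat 1 and withdrawal rat 5) and where choroid plexus markers, a sign of neighboring tissue, were higher (r = −0.66, rho = −0.779, adjusted permutation p = 0.0147 and 0.0077; −0.52, −0.44, and −0.72 within the groups, −0.62 in the second index set, −0.59 without withdrawal rats 4 and 5). The choroid plexus sum ranged from 1025 to 2132 CPM in control, 1342 to 5050.0 CPM in ethanol, and 25.9 to 5012 CPM in withdrawal rats. Neto1 was lower where endothelial markers were higher (r = −0.68, rho = −0.616, adjusted permutation p = 0.0148 and 0.0476; −0.82, −0.79, and −0.69 within the groups, −0.80 in the second index set, −0.49 without withdrawal rats 1 and 5).

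Grik5 was lower in rats with more thalamic marker RNA (r = −0.79, rho = −0.711, adjusted permutation p = 0.00339 and 0.0164; −0.84, −0.98, and −0.73 within the groups, −0.90 in the second index set, −0.79 without ethanol rats 1 and 4). Neto1 was too (r = −0.64, rho = −0.674, adjusted permutation p = 0.0266 and 0.0225), with r of −0.40, −0.86, and −0.72 within the groups, −0.79 in the second index set, and −0.63 without the same rats. The single thalamic markers differed in their r with Neto1, from −0.84 (Slc17a6), −0.71 (Tcf7l2), and −0.68 (Lef1) to −0.067 (Prkcd). Grik2 also ran against the thalamic markers (r = −0.60, rho = −0.703, adjusted permutation p = 0.0382 and 0.0164), with r of 0.15 within control, −0.62 within ethanol, and −0.86 within withdrawal rats, −0.64 in the second index set, and −0.42 without ethanol rats 1 and 4. Its r with endothelial markers, whose sum was higher in both ethanol and withdrawal than in control rats, was −0.57 (rho = −0.579, adjusted permutation p = 0.0576 and 0.0632). This r was −0.17, −0.77, and −0.91 within control, ethanol, and withdrawal rats, −0.63 in the second index set, and −0.55 without withdrawal rats 1 and 5. The thalamic sum ranged from 193 to 597 CPM in control, 148 to 1180 CPM in ethanol, and 145 to 512 CPM in withdrawal rats, with its highest value in ethanol rat 1, the ethanol rat with the lowest Grik5 (132 CPM) and Neto1 (84.9 CPM). In ethanol vs. control the log2 difference of this sum was 0.33 (exact permutation p = 0.532). Of its 4 markers only Slc17a6 was DE in that comparison by limma-voom, and it was lower in ethanol rats. The part of tissue makeup in the members' levels was not tested.

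**Figure D4:**
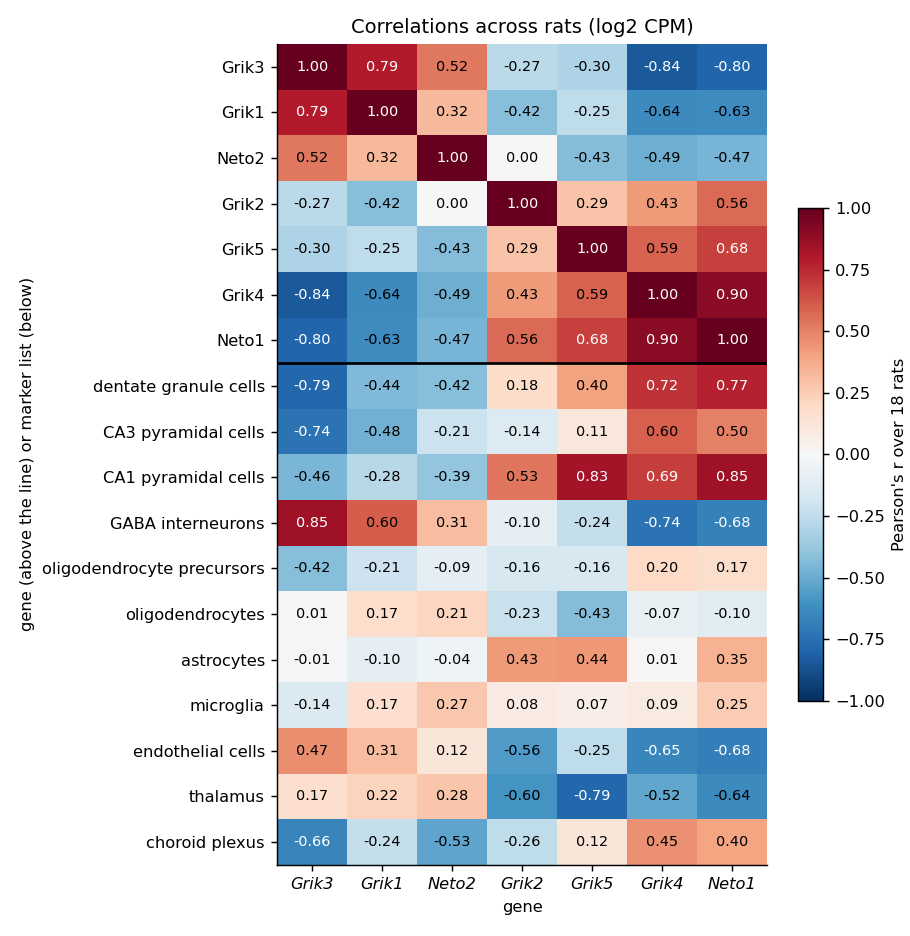
Pearson's r over 18 rats on log2 CPM between the members (above the line) and between each member and the summed markers of 11 cell types or tissues (below). Grik4 and Neto1 go together (0.90), Grik1 and Grik3 go together (0.79), and the first pair runs against Grik3 (−0.84 and −0.80).

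**Figure D5:**
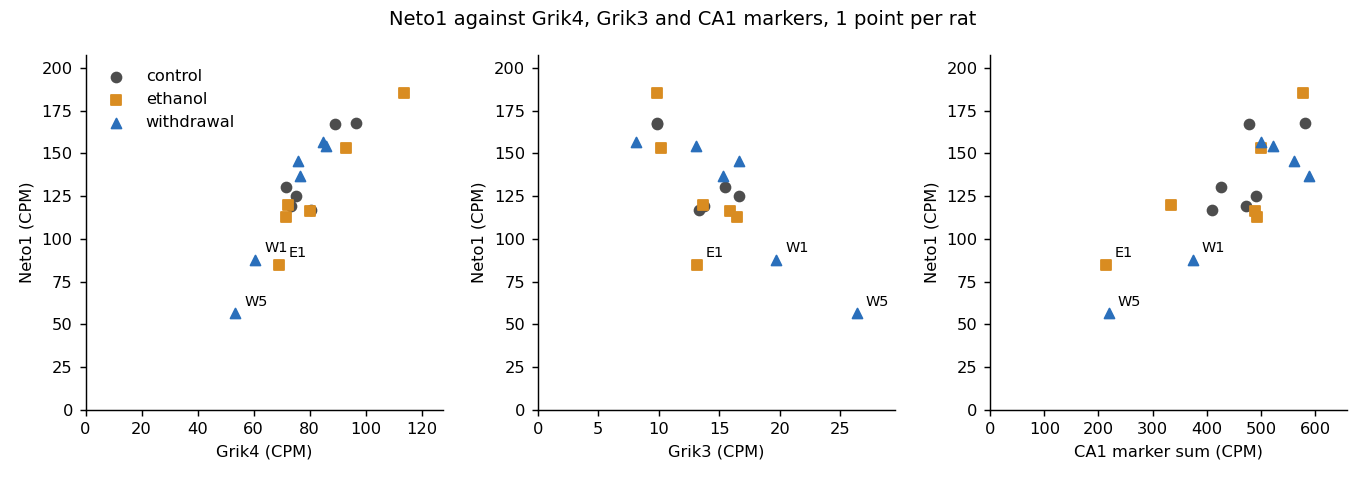
Neto1 in each rat (CPM, vertical axes from 0) against Grik4, Grik3, and the sum of 4 CA1 markers (CPM, horizontal axes from 0), with a point per rat and a symbol per group. Withdrawal rats 1 and 5 (W1, W5) and ethanol rat 1 (E1) lie at the low end of Neto1, at 87.9, 56.7, and 84.9 CPM, and points of the 3 groups are mixed elsewhere.

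Some marker sums also differed between groups. Dentate granule cell markers were lower in withdrawal than in control rats (144 ± 39.3 and 188 ± 13.7 CPM, log2 difference −0.44, exact permutation p = 0.0108), CA3 markers were lower in withdrawal than in ethanol rats (94.3 ± 26.1 and 137 ± 27.7 CPM, −0.57, exact permutation p = 0.013), astrocyte markers were higher after withdrawal (3060.0 ± 408 CPM) than in the ethanol group (2524 ± 263 CPM, 0.27, exact permutation p = 0.0411, with Gfap alone of the 4 DE), and endothelial markers were higher in both ethanol and withdrawal than in control rats (0.16 and 0.24, exact permutation p = 0.0173 and 0.0216). These p values are not adjusted over the 33 comparisons of marker sums. By limma-voom 0 of the 3 dentate granule cell markers tested were DE in withdrawal vs. control, and 0 of the 2 CA3 markers tested in withdrawal vs. ethanol. Of the 3 endothelial markers, 0 were DE in ethanol vs. control and 2 (Pecam1 and Flt1, both higher) in withdrawal vs. control, beside 0.65 and 5.51% of genes. The astrocyte markers did not move together, since against control rats Gfap was higher (0.54 on the log2 scale, q = 0.0769) and Aldh1l1 lower (−0.41, q = 0.0496) in withdrawal, both by limma-voom.

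For each member the tested gene outside the family with the most similar pattern over the 18 rats was listed, as Pearson's r of log2 CPM. Neto1 was most like Hpca (r = 0.98), which encodes the calcium sensor hippocalcin, and next most like Ptk2b and Clstn2 (0.98 each). Grik4 was most like Stim2 (0.94), Becn1 (0.93), and Cst6 (0.93), and Grik3 most like Olfm2 (0.97), Pitpnm3 (0.97), and Slc35f1 (0.96). Grik5 was most like Adgrb2 (0.94), Baiap2 (0.94), and Zfp821 (0.93). For Grik2 they were Pja2 (0.91), Tomm70 (0.90), and Vps35 (0.89), and for Grik1 Asic4 (0.90), Rdh16 (0.89), and Slc27a2 (0.88). Neto2 had no gene as close, with 0.77 for Prkar2b and 0.77 and 0.75 for the uncharacterized genes LOC102554253 and LOC108351752. These are the highest of 17846 values for each member and carry no test.

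The genes known to anchor, move, modify, or degrade kainate receptors were then compared, from a list of 27 that were all tested. In ethanol vs. control 0 of the 27 were DE by limma-voom (background 0.65% of genes), in withdrawal vs. control 1 was DE (background 5.51%), and in withdrawal vs. ethanol 0 were DE (background 2.75%). At an unadjusted p under 0.05 by limma-voom 2, 4, and 6 of the 27 passed, beside 12.4, 19.8, and 16.8% of genes, and by the exact permutation test 1, 5, and 3 passed, beside 13.5, 13, and 14.4% of genes. Their median log2 fold changes were −0.0094, −0.0096, and 0.0081, beside 0.0036, 0.0038, and 6.29e-05 over all genes. Of the 13 other ionotropic glutamate receptor genes (AMPA, NMDA, and delta), 0 were DE in each comparison by limma-voom, with 0 at an unadjusted p under 0.05 (background 12.4, 19.8, and 16.8%) and 0 by the exact permutation test (background 13.5, 13, and 14.4%).

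The gene that was DE was Kif17, which encodes a kinesin motor known for carrying glutamate receptor subunits along dendrites. It ranged from 22.7 to 29.1 CPM in control rats (median 25.2), from 18.2 to 26.4 CPM in ethanol rats (median 25), and from 14.8 to 24.1 CPM in withdrawal rats (median 22.1). All 6 withdrawal rats were below the control mean and 4 were below every control rat, with withdrawal rats 5 and 1 lowest. The summed dentate granule cell markers, which were lower in withdrawal than in control rats, were lowest in the same rats, at 77.8 and 119 CPM, and the part of tissue makeup in the level of Kif17 was not tested. Kif17 fell by 0.27 on the log2 scale in withdrawal vs. control (SE 0.075, q = 0.0718 by limma-voom, exact permutation p = 0.0238, where 2.36% of genes were DE and lower in withdrawal and 13% had a permutation p under 0.05), from 25.3 ± 2.48 to 20.5 ± 3.84 CPM (SD, n = 6). The call was lost, with q up to 0.200 by limma-voom, when control rat 1, 2, 3, 5, or 6 or withdrawal rat 1, 3, or 6 was left out, while the log2 fold change stayed negative, from −0.32 to −0.23, in these and the other leave-one-out models. Fitted without surrogate variables, Kif17 had a log2 fold change of −0.31 and q = 0.309 by limma-voom, and when ethanol rat 1 and withdrawal rat 5 were left out together it had −0.25 and q = 0.104.

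C1ql2, which encodes a secreted protein known for recruiting kainate receptors to mossy fiber synapses, is named here after its values were seen, since its difference was larger than that of Kif17 without passing the threshold. It ranged from 48.9 to 68.6 CPM in control rats (median 53.0), from 20.4 to 50.9 CPM in ethanol rats (median 45.0), and from 22.6 to 52.7 CPM in withdrawal rats (median 35.3). Of the rats in each group, 5 withdrawal and 4 ethanol rats were below every control rat. In withdrawal vs. control the log2 fold change was −0.57 (SE 0.180, q = 0.103 by limma-voom, exact permutation p = 0.00649), and in ethanol vs. control −0.34 (SE 0.190, q = 0.496 by limma-voom, exact permutation p = 0.00866). In withdrawal vs. control it was DE in 3 of 18 leave-one-out models and under 7 of 16 other settings. C1ql2 is also one of the dentate granule cell markers, whose sum was lower in withdrawal than in control rats. That sum includes C1ql2 itself and so in part restates its difference. The part of tissue makeup in the level of C1ql2 was not tested.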

How the data were processed

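RNA of the dorsal hippocampus was sequenced from 18 rats in 3 groups of 6 separate animals, grouped by the treatment given in the labels. Per the file headers and the study's methods, the authors aligned paired-end reads to Rnor_6.0 (annotation 106) with STAR 2.5.2a and the deposited values are unnormalized counts that featureCounts 1.5.0 made on exons by strand, leaving out multi-mapping pairs. Gene symbols came from the RefSeq table of GRCr8 (29322 of 38445 identifiers matched), and promoters from RefSeq for GRCr8. Member coordinates are those of the deposited files. Of the members, only Grik3 shares exon bases (54, with a gene on the other strand that had at most 2 counts).

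TMM scaling was done in edgeR 4.0.16. Genes above 0.5 CPM in 1 or more rats entered limma 3.58.1 (voom) in R 4.3.3, with all 3 groups in the same model and 3 surrogate variables from sva 3.50.0 (log2 CPM, prior count 2), and Benjamini-Hochberg adjustment within each comparison (q < 0.1). Each member was also tested by an exact permutation test (two-sided, log2 CPM) over all 924 splits of 6 against 6 rats, for which 0.00216 is the smallest p. Levels are TMM CPM as mean ± SD. Total counts had a median of 36302755 per rat. The 45 pairs of rats within groups differed by more than sampling noise (lowest chi-square per degree of freedom 5.44). The procedure was tested on simulated data. Permutations and plots were made in Python 3.11.15 (scipy 1.17.1, pandas 2.3.3, numpy 2.4.6, matplotlib 3.10.9). Alternatives comprised DESeq2 1.42.0 or edgeR (quasi-likelihood) in place of limma, 0, 2, or 4 surrogate variables, quality weights per library, scaling by size factors or upper quartile, no or a stricter filter, q < 0.05, models of the compared groups only or of the second index set only (the latter without surrogate variables), replicate blocks, and leaving out each rat.

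The genes named were the 7 members, the DE genes of the partner list, the other ionotropic glutamate receptor genes, and for each member the 3 genes with the most similar pattern, besides markers. C1ql2 and Cul3, partner genes that were not DE in the reported model, were named after their values were seen. The members, the gene and marker lists, and the alternatives were chosen with earlier results of these data known, and 3 alternatives (the replicate block and edgeR without surrogate variables, and leaving out ethanol rat 1 and withdrawal rat 5 together) were added after the values were seen. The study's coexpression modules, quantitative PCR, protein, and human data were not analysed here.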

Additional observations from a re-analysis of the deposited data

Results flagged for a closer look

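Of 54 sets of 6 rats examined (each member and each marker list in each group), 1 held a rat that stood apart from the others of its group by Dixon's criterion, where chance gives about 1 in 20. The summed astrocyte markers of withdrawal rat 5 were 2248 CPM, below the 3110 to 3360 CPM of the other withdrawal rats. The same rat had the lowest Neto1 (56.7 CPM) and Grik4 (53.5 CPM) and the highest Grik3 (26.3 CPM) of all 18 rats, although none of these values met the criterion.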

How the results depend on the processing

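No member was DE in withdrawal vs. control under any alternative. In ethanol vs. control 1 member (Grik5) was DE by DESeq2 and with sample quality weights, and in the leave-one-out models the number was 0 to 1 (Grik2, without ethanol rat 5), as in withdrawal vs. ethanol (0 to 1, the same gene and rat). The partner genes that were DE in withdrawal vs. control numbered 0 without surrogate variables, without the filter, at q < 0.05, with the replicate block without surrogate variables, and by edgeR without surrogate variables, 2 with quality weights, upper quartile scaling, the stricter filter, only the compared groups, the replicate block with surrogate variables, and ethanol rat 1 and withdrawal rat 5 left out together, 3 with 4 surrogate variables, and 0 to 4 in the leave-one-out models. In withdrawal vs. ethanol they numbered 1 without surrogate variables, with 4 of them, and by edgeR without them, 2 by DESeq2, 3 with quality weights, and 0 to 5 in the leave-one-out models. Cul3 was among them under each of these settings other than leaving out a rat. In the reported model it was higher in withdrawal than in ethanol rats without passing the threshold (log2 fold change 0.15, q = 0.116 by limma-voom, exact permutation p = 0.00433).

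These counts stood beside very different shares of all genes. In withdrawal vs. control 5.51% of genes were DE as reported, 0.224% without surrogate variables, 7.7% with 4 of them, 6.44% with quality weights, 5.76% with upper quartile scaling, 6.37% with the stricter filter, 6.63% with only the compared groups, 5.08 and 0% with the replicate block with and without surrogate variables, 0.218% by edgeR without them, 5.55% with the 2 rats left out together, 1.66% without the filter, 2.07% at q < 0.05, and 0.118 to 10.8% in the leave-one-out models. In withdrawal vs. ethanol 2.75% were DE as reported, 3.44% without surrogate variables, 5.09% with 4, 3.75% by edgeR without them, 6.63% by DESeq2, 6.1% with quality weights, and 0 to 10.2% in the leave-one-out models, with the highest share, as the highest partner count, without ethanol rat 5.

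Signs turned only for log2 fold changes that were not DE. For Grik1 in ethanol vs. control the value was −0.044 without surrogate variables, −0.020 with 2, −0.033 with the replicate block without them, −0.029 by edgeR without them, and −0.0051 with ethanol rat 1 and withdrawal rat 5 left out. For Grik1 in withdrawal vs. ethanol it was 0.016 without surrogate variables, 0.20 in the second index set, also without surrogate variables, 0.0022 with the block without surrogate variables, and 0.018 by edgeR without them. For Grik3 in withdrawal vs. ethanol it was 0.24, 0.28, 0.25, and 0.33 under the same settings in this order, 0.019 with 4 surrogate variables, and 0.022 with the block and surrogate variables. In the second index set without surrogate variables, where both choices differ from the reported model, Grik5 was 0.044 and Neto2 −0.076 in withdrawal vs. ethanol, and with only the compared groups Neto1 was 0.051 in ethanol vs. control. The leave-one-out ranges that crossed 0 in ethanol vs. control were −0.058 to 0.085 (Grik1), −0.0093 to 0.12 (Grik4), −0.063 to 0.012 (Neto1), and −0.00086 to 0.067 (Neto2). In withdrawal vs. control they were −0.055 to 0.0098 (Grik2) and −0.0058 to 0.11 (Neto2), and in withdrawal vs. ethanol −0.18 to 0.0061 (Grik1), −0.078 to 0.093 (Grik3), and −0.029 to 0.072 (Neto2). For the unadjusted differences used in the permutation test they were −0.12 to 0.037 (Grik1), −0.070 to 0.086 (Grik3), −0.069 to 0.078 (Grik4), and −0.00054 to 0.10 (Grik5) in ethanol vs. control, −0.075 to 0.075 (Grik1), −0.059 to 0.014 (Grik2), and −0.011 to 0.10 (Grik5) in withdrawal vs. control, and −0.048 to 0.11 (Grik1), −0.079 to 0.051 (Grik5), and −0.22 to 0.097 (Neto1) in withdrawal vs. ethanol. The causes were not tested. Of the 343 log2 fold changes of members under settings other than leaving out a rat, 323 kept their sign and their side of the threshold.

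The replicate numbers did not pair the rats, since the correlation of same-numbered rats after removal of group means ran from −0.325 to 0.383 (median −0.073), with 4 of 18 pairs over 0.1, and 4 rats correlated best with their own number. With the replicate block and surrogate variables 0 members were DE in each comparison, where 33, 907, and 1 of 17853 genes were, and without surrogate variables 0 members were, where 0, 0, and 14 genes were, so that these counts say little about the members. With 6 rats per group, differences of any size within the confidence intervals given remain possible. Group cannot be told apart from index set in the comparisons with control.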
